A study of Homo sapiens with 4 samples.

Results

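The miR-181 family is a group of microRNAs (miRNAs, short RNAs that guide Argonaute proteins to matching messenger RNAs) made from 6 hairpin genes on 3 human chromosomes. Its strands were taken by name, as every row of the deposited table that begins with miR-181a, miR-181b, miR-181c or miR-181d, which gave 8 strands among 1345 miRNAs. The family was selected on the normalised counts of the plus libraries against the minus libraries, the same values described below, so that difference is given for its strands as a description, with no p-value. The libraries came from HCT116, a human colorectal carcinoma line of epithelial origin, in which doxycycline switches on a short hairpin RNA (shRNA) that targets SAE2, the catalytic subunit of the enzyme that activates the small modifier protein SUMO.

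There were 2 plus and 2 minus libraries. Plus was read as cells given doxycycline and minus as cells without it. This rests on these words in the labels alone, because the protocol text states 3 days of doxycycline for every library. The study used 2 cell lines with independent shRNAs, called sh1 and sh2. Replicate 2 of each condition is labelled sh2 and minus replicate 1 is labelled sh1. Plus replicate 1 is labelled without an shRNA number, and it was placed in the sh1 line by elimination wherever a comparison uses the lines. Both conditions carry the shRNA cassette. Cells given doxycycline without an SAE2 shRNA were not analysed here, so the drug and the knockdown cannot be told apart, and SAE2 itself is not measured by miRNA libraries. Nothing states how many clones each line holds. Each line gave 1 library per condition, so the spread between replicates is the spread between these 2 lines.

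Most miRNA hairpins are cut from a longer transcript and yield a 5p and a 3p strand, of which one is usually kept and the other degraded. Bases 2 to 8 of a strand, the seed, do most of the target recognition, so strands with 1 seed share many targets. The 5p strands of miR-181 are the kept ones. They are abundant in lymphocytes, where in mice miR-181a tunes the sensitivity of the T cell receptor, and in human epithelial cells miR-181a and miR-181b are known to be raised by TGF-beta, and miR-181b by STAT3. The family has been studied in colorectal cancer as well.

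The 8 mature strands are shown because the copies of the family differ in these letters. They were taken from RefSeq (GRCh38.p14), where 7 of the 8 names matched exactly. The table names miR-181d without an arm, and it was read as the 5p strand. Capitals mark the seed, and each strand reads 5′ to 3′.
miR-181a-5p: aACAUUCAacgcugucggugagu
miR-181b-5p: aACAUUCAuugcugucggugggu
miR-181c-5p: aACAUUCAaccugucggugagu
miR-181d: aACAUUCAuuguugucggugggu
miR-181a-3p: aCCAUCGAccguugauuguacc
miR-181a-2-3p: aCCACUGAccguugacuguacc
miR-181b-3p: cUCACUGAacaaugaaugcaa
miR-181c-3p: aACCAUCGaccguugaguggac

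The 4 main strands carry the same seed, ACAUUCA, and none of the 4 partner strands carries it or shares a seed with another member. Counting positions from 1 at the 5′ end, miR-181b-5p differs from miR-181a-5p by A9U, C10U and A21G. miR-181d differs from miR-181b-5p by C12U alone, and miR-181c-5p lacks the base at position 11 of miR-181a-5p. miR-181a-2-3p differs from miR-181a-3p by U5C, C6U and U16C, and the first 2 of these lie in the seed. Among 2370 RefSeq mature names, 5 have the main-strand seed, the fifth being miR-4262, which was not analysed here. The seed of miR-181b-3p is shared by miR-4420, listed at 0 in both plus libraries, and at 0 and 1.93 normalised counts in minus replicates 1 and 2, below the worth of 3 reads.

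The hairpins lie in pairs. MIR181A1 (chr1:198859044-198859153, minus strand) and MIR181B1 (chr1:198858873-198858982, minus strand) are 61 bases apart in an intron of the non-coding RNA gene MIR181A1HG, 78.3 and 78.4 kb from its annotated 5′ end. MIR181A2 (chr9:124692442-124692551, plus strand) and MIR181B2 (chr9:124693710-124693798, plus strand) are 1158 bases apart in an intron of MIR181A2HG. MIR181C (chr19:13874699-13874808, plus strand) and MIR181D (chr19:13874875-13875011, plus strand) are 66 bases apart in an intron of NANOS3, a gene of the germ line. Positions are those of RefSeq on GRCh38.p14, and introns those of GENCODE 29 on GRCh38. The submitters' processing notes name hg19, and no coordinate of the deposited table was used.

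miR-181a-5p is cut from MIR181A1 and from MIR181A2 with the same 23 letters, so its reads cannot be assigned to a chromosome, and the same holds for miR-181b-5p with MIR181B1 and MIR181B2. The partner strands of miR-181a differ between the copies and can be assigned. Both miR-181a hairpins are shown for that reason, with the mature strands in capitals and the copy-specific partner as the second of them.
MIR181A1: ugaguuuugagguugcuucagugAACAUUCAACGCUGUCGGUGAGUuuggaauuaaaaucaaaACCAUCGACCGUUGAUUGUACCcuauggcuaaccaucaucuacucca
MIR181A2: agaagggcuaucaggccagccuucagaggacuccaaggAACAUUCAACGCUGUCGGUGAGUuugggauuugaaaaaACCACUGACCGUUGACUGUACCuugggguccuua

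miR-181b-3p is annotated to the chromosome 1 copy. The partner from chromosome 9, miR-181b-2-3p, was not analysed here. It differs from miR-181b-3p by A9U and is 1 base shorter, and how the submitters' counting treated such reads is not given in the sources used here.
miR-181b-2-3p: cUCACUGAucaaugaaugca

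**Figure D1:**
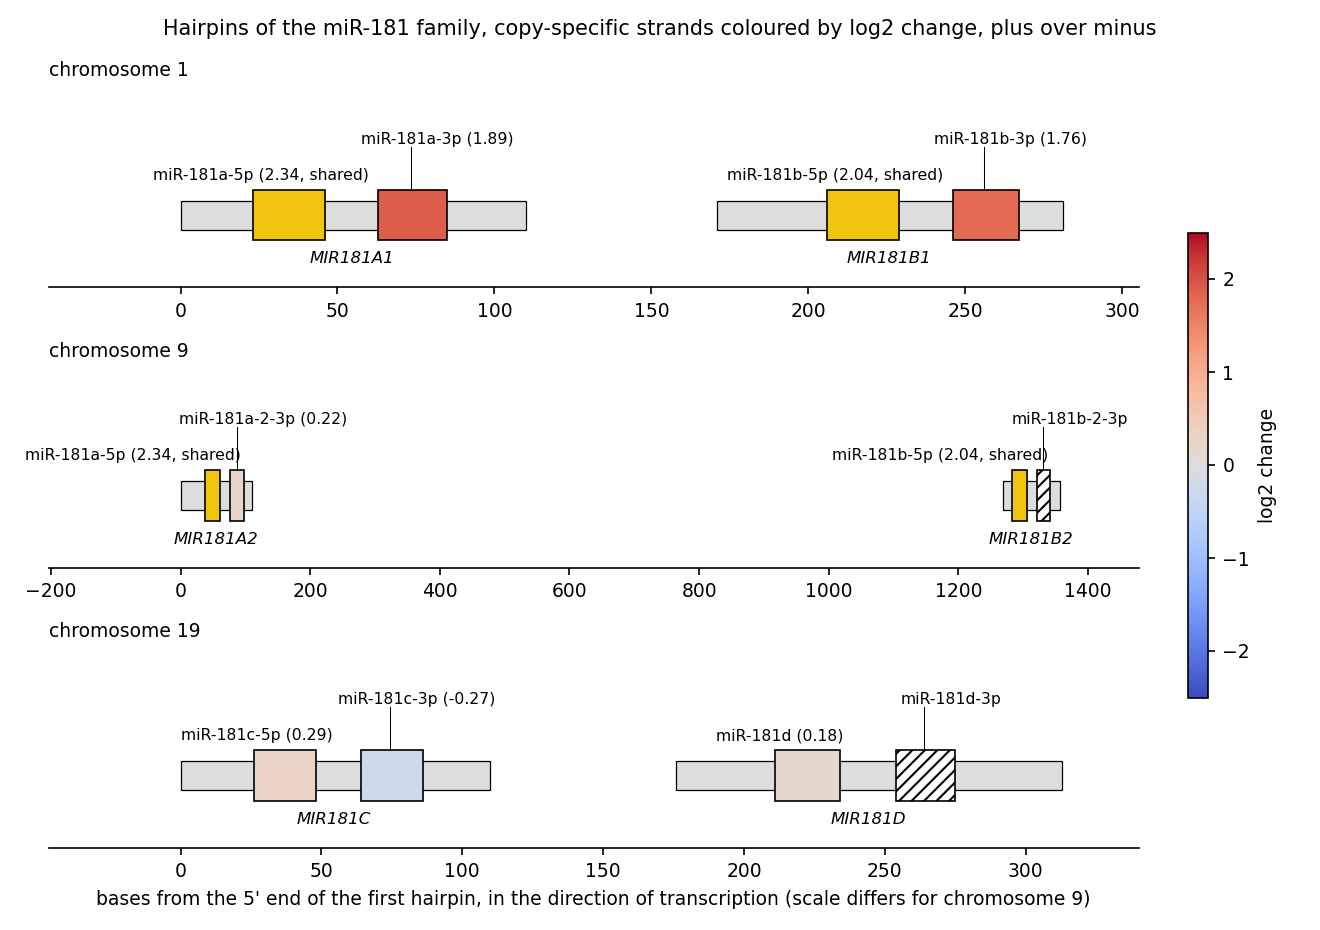
The 3 loci of the family drawn to scale along the bases from the 5′ end of the first hairpin, with hairpins as grey bars and mature strands as boxes. Strands annotated to a single copy are coloured by log2 change, plus over minus (1.89 for miR-181a-3p and 1.76 for miR-181b-3p of chromosome 1, 0.22 for miR-181a-2-3p of chromosome 9). Yellow boxes are strands with the same sequence on chromosomes 1 and 9, and hatched boxes were not analysed here.

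The deposited values are taken as read counts per miRNA that the submitters adjusted to a common library size, called normalised counts here. This was inferred and no source states it, and all read numbers and counting intervals rest on it. The values summed to 9833885 and 10519207 in plus replicates 1 and 2 and to 9847531 and 9700472 in minus replicates 1 and 2. On this reading, 1 read was worth 0.945 to 1.03 normalised counts. The colon epithelium markers checked for the labelled cell type summed to 2707110 and 2940690 in plus and 2613790 and 2512690 in minus. Most of each sum was miR-21-5p, so the sums do not show that every marker was abundant. The listed stroma markers summed to 14095 and 16912 in plus and 16425 and 16495 in minus. Such sums do not by themselves identify the cell type. Across all miRNAs the 2 conditions were compared with limma on log2(value + 1), for the 709 with a mean of at least 10, and a call is an adjusted p under 0.05. It called 95 up and 107 down (28.5% in all, 13.4% up), and 121 up and 83 down under median-ratio scaling. Fold changes from log2(value + 1) understate the change of low miRNAs. A library averages many cells, so more of a strand per cell and more cells with the strand cannot be told apart.

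The shared main strands were the most abundant and the most changed. miR-181a-5p stood at 98896 and 87104 normalised counts in plus replicates 1 and 2, against 20336 and 16589 in minus replicates 1 and 2. Both plus libraries lay far above both minus libraries. The means were 92999.6 ± 8338 in plus and 18462 ± 2649 in minus (SD, n = 2 each), a ratio of 5.04 and a log2 change of 2.34 with a standard error of 0.088. miR-181a-5p ranked 20th and 23rd of all miRNAs in the plus libraries, and 59th and 61st in the minus libraries. It had the largest log2 change among the 190 miRNAs that averaged 1000 or more. In normalised counts its mean gain was 74537, and miR-21-5p and miR-221-3p alone gained more.

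miR-181b-5p, cut from the neighbouring hairpin of each pair, had 16468 and 14402 normalised counts in the plus libraries, against 4036 and 3481 in the minus libraries. The groups were far apart, with means of 15435.5 ± 1461 in plus and 3758 ± 392.3 in minus (SD, n = 2 each), a ratio of 4.11 and a log2 change of 2.04 ± 0.09 (standard error). It ranked 64th and 67th in the plus libraries and 109th and 112th in the minus libraries.

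The partners annotated to chromosome 1 moved with the main strands. miR-181a-3p, cut from MIR181A1, had 1807 and 1743 normalised counts in the plus libraries, against 506 and 453 in the minus libraries. The 2 libraries of each condition lay close together, and the ratio of the means was 3.70, with a log2 change of 1.89 ± 0.12 (standard error). miR-181b-3p, annotated to MIR181B1, had 194 and 142 normalised counts in the plus libraries, against 65.5 and 35.6 in the minus libraries. This is the lowest strand of the family in the minus libraries. Its means were 168 ± 36.9 in plus and 50.6 ± 21.2 in minus (SD, n = 2 each), a ratio of 3.32 and a log2 change of 1.76 ± 0.23 (standard error).

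The partner that is specific to chromosome 9 did not follow. miR-181a-2-3p, cut from MIR181A2, had 111 and 94.0 normalised counts in the plus libraries, against 75.6 and 102 in the minus libraries. It is the only strand of the 8 whose groups overlapped. The means were 102 ± 12.0 in plus and 88.8 ± 18.7 in minus (SD, n = 2 each), and the log2 change was 0.22 ± 0.21 (standard error). In the plus libraries its level was about that of the minus libraries while the main strand, which the same hairpin also gives, stood at 5.04 times its minus level.

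The chromosome 19 strands stayed near their minus levels. miR-181d had 587 and 492 normalised counts in the plus libraries, against 490 and 461 in the minus libraries. The lower plus library was barely above the higher minus library, and the log2 change was 0.18 ± 0.13 (standard error). miR-181c-5p had 267 and 226 normalised counts in the plus libraries, against 224 and 181.3 in the minus libraries, with a log2 change of 0.29 ± 0.16 (standard error). Its partner miR-181c-3p had 88.5 and 93.0 normalised counts in the plus libraries, against 97.8 and 123 in the minus libraries. It was the only strand lower in plus, with a log2 change of −0.27 ± 0.21 (standard error).

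**Figure D2:**
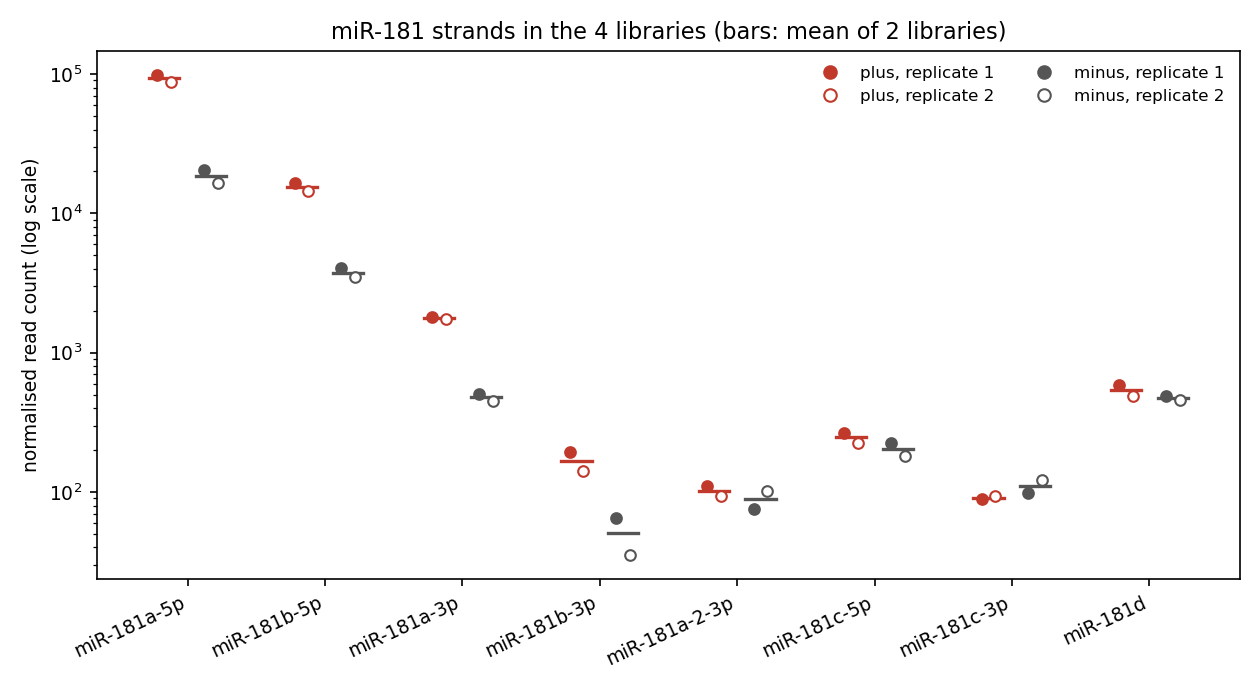
Normalised read count on a log scale of each miR-181 strand in the 4 libraries, with plus (red) left of minus (grey), filled points for replicate 1, open points for replicate 2, and bars for the mean of 2 libraries. Plus lies above minus by a wide gap for miR-181a-5p (98896 and 87104 against 20336 and 16589), miR-181b-5p, miR-181a-3p and miR-181b-3p, and the groups overlap for miR-181a-2-3p.

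Of the 8 strands, all of which passed the level filter, the fit over all miRNAs called 4 up and none down, namely miR-181a-5p, miR-181b-5p, miR-181a-3p and miR-181b-3p, and the same 4 with the line as a block. All 4 were at least 2-fold higher in plus, as were 2.4% of all tested miRNAs with a call. The share of calls in either direction over all tested miRNAs was 28.5%, and nothing is read from the count, since the choice of the family used this contrast. The call of miR-181b-3p was lost without plus replicate 1, without plus replicate 2, with no level filter and with no mean-variance trend. The plus and minus libraries did not overlap for 7 of the 8 strands, against 62.9% of all tested miRNAs. The median log2 change was 1.02 over the 8 strands and −0.03 over all 709. No strand had a value between 0.29 and 1.76, so that median describes none of them.

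**Figure D3:**
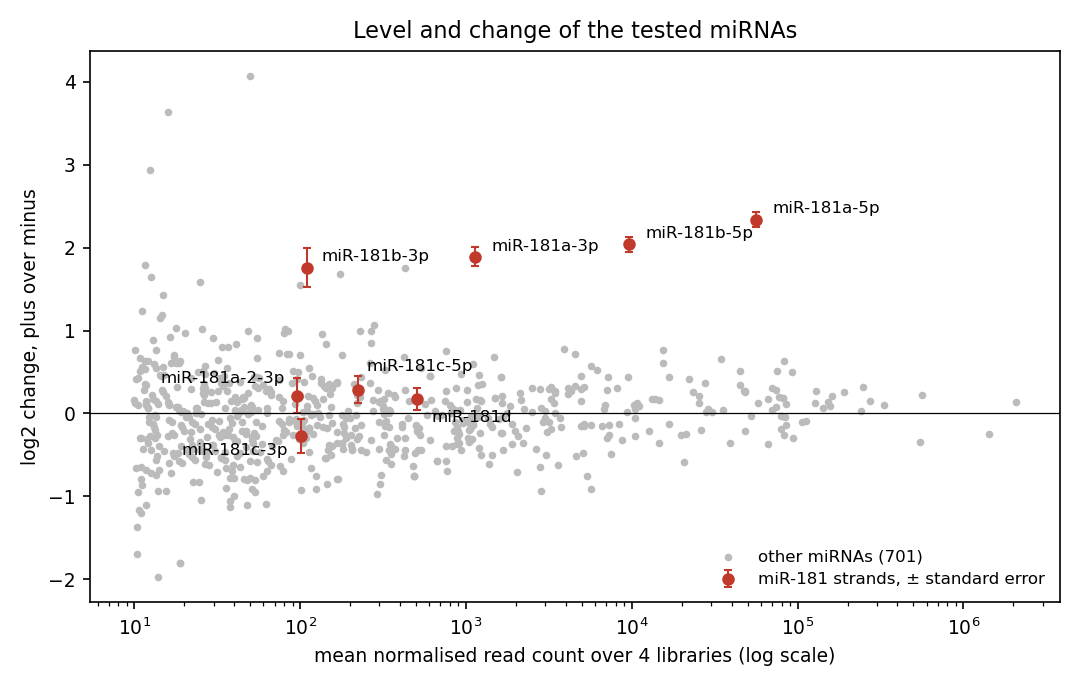
Log2 change, plus over minus, against the mean normalised read count over 4 libraries (log scale) for the 709 tested miRNAs, with the miR-181 strands in red and bars of 1 standard error. miR-181a-5p, miR-181b-5p, miR-181a-3p and miR-181b-3p lie between 1.76 and 2.34, and the other 4 strands between −0.27 and 0.29.

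The change was next taken within each shRNA line, and with a single library of each kind there was no test. miR-181a-5p was 5.25-fold higher in plus than in minus in the sh2 line and 4.86-fold in the sh1 line. For miR-181b-5p the folds were 4.14 in the sh2 line and 4.08 in the sh1 line, and for miR-181a-3p 3.85 and 3.57 in the same order. Both independent shRNA lines therefore gave these strands folds that were close in size. For miR-181a-5p the 95% exact counting intervals were 5.17 to 5.34 in the sh2 line and 4.79 to 4.94 in the sh1 line. These intervals did not overlap. miR-181b-3p had 3.99-fold more in the sh2 line and 2.96-fold more in the sh1 line. From about 139 against 38 reads and 189 against 65 reads, the 95% exact counting intervals were 2.75 to 5.82 and 2.23 to 3.99, so the lines were not distinguishable at this depth.

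The sign of the change differed between the lines for 1 strand. miR-181a-2-3p had a plus to minus ratio of 0.921 in the sh2 line (about 92 against 108 reads, counting interval 0.690 to 1.23) and of 1.47 in the sh1 line (about 108 against 75 reads, counting interval 1.08 to 2.00). These intervals overlapped and that of the sh2 line included 1, so a difference in direction is not shown at this depth. Among all tested miRNAs, 26.8% had opposite signs in the lines. The log2 change of the sh2 line minus that of the sh1 line was −0.67 for miR-181a-2-3p, where the median size of this difference was 0.30 for the 151 miRNAs averaging 50 to 200. It was between −0.26 and 0.41 for the other 7 strands. miR-181c-3p was lower in plus in both lines, with ratios of 0.756 (counting interval 0.573 to 0.997) in the sh2 line and 0.905 (0.668 to 1.22) in the sh1 line.

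**Figure D4:**
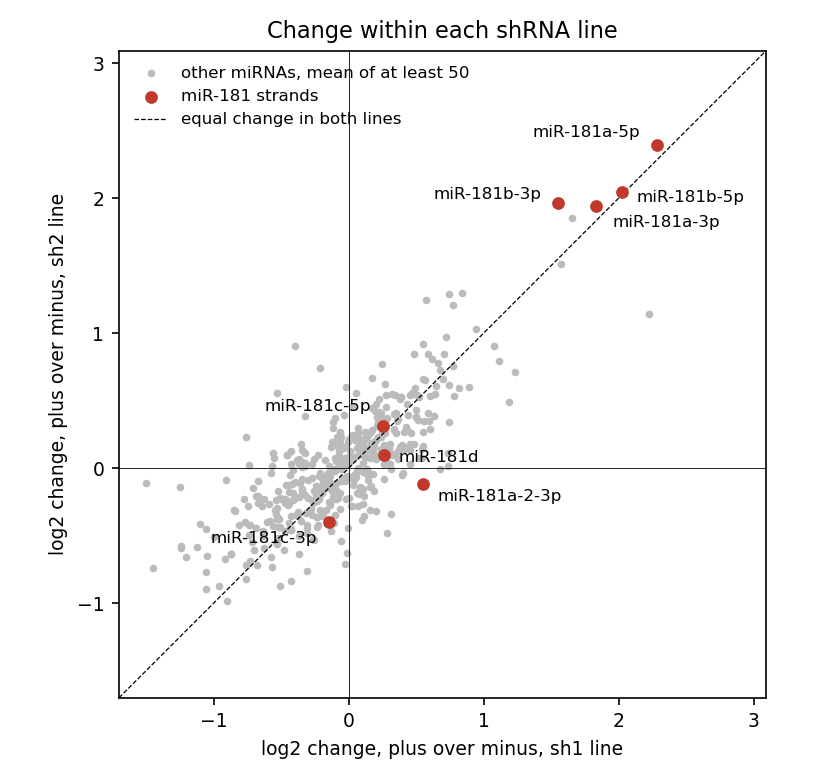
Log2 change, plus over minus, in the sh2 line against that in the sh1 line for miRNAs with a mean of at least 50, with miR-181 strands in red and a dashed line of equal change. miR-181a-5p (2.39 in sh2 and 2.28 in sh1) and miR-181b-5p lie near the dashed line, while miR-181a-2-3p (−0.12 in sh2 and 0.55 in sh1) lies away from it.

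The ratio of the partner strands sets the chromosome 1 copy of miR-181a against the chromosome 9 copy within each library, where a common scaling cancels. miR-181a-3p over miR-181a-2-3p was 16.3 and 18.5 in the plus libraries, against 6.69 and 4.44 in the minus libraries. Both plus libraries lay above both minus libraries, and the log2 ratio differed by 1.67, by 2.06 in the sh2 line and by 1.29 in the sh1 line. Reads of strands with different letters also depend on how well each is ligated and kept, so the ratio within 1 library is not the ratio of the copies' output. Whether ligation differed between the libraries was not tested.

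Main to partner ratios differed less. miR-181a-5p over miR-181a-3p was 54.7 and 49.99 in the plus libraries, against 40.2 and 36.6 in the minus libraries, so that the main strand, which 2 hairpins supply, differed more than the partner of 1 of them. The log2 ratio differed by 0.45, and by 0.45 in each line. miR-181b-5p over miR-181b-3p was 84.9 and 101 in the plus libraries, against 61.6 and 97.8 in the minus libraries, and these groups overlapped. The difference of the log2 ratio, 0.28, was −0.05 without minus replicate 1. miR-181c-5p over miR-181c-3p was 3.02 and 2.43 in the plus libraries, against 2.29 and 1.47 in the minus libraries.

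The arm ratios were set beside those of all 183 names with both arms at a mean of at least 10. Over these the median size of the difference in log2 arm ratio between plus and minus was 0.21. The difference was larger than that of miR-181a for 42 of the 183 names, than that of miR-181b for 76 and than that of miR-181c for 25. The skew between the arms was 83.7-fold for miR-181b, 44.7-fold for miR-181a and 2.22-fold for miR-181c, against a median of 8.48-fold. Both arms had a log2 change of at least 1 for 3 names, miR-181a, miR-181b and miR-3614.

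**Figure D5:**
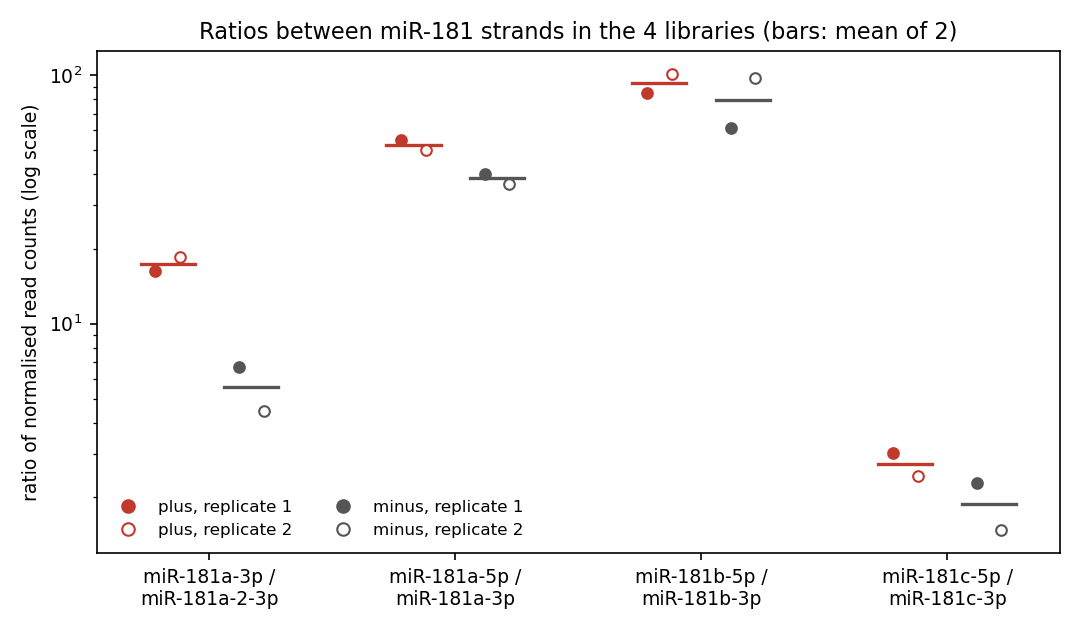
Ratios of normalised read counts between miR-181 strands in the 4 libraries on a log scale, with plus (red) left of minus (grey), filled points for replicate 1, open points for replicate 2, and bars for the mean of 2 libraries. miR-181a-3p over miR-181a-2-3p is 16.3 and 18.5 in plus against 6.69 and 4.44 in minus, and the points of the 2 conditions overlap for miR-181b-5p over miR-181b-3p.

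As a share of all normalised counts, the family made up 1.204% and 0.991% in the plus libraries, against 0.262% and 0.221% in the minus libraries. miR-181a-5p was 83.5% of the family in both plus libraries, against 78.7% and 77.4% in the minus libraries. The chromosome 19 strands gave 0.735% and 0.703% of the counts with the shared main-strand seed in plus, against 2.84% and 3.10% in minus. Their own levels differed little, so this smaller share goes with the larger counts of miR-181a-5p and miR-181b-5p. miR-181a-5p over miR-181b-5p was 6.01 and 6.05 in plus, against 5.04 and 4.77 in minus, and the groups did not overlap.

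The order of levels in the minus libraries was miR-181a-5p, miR-181b-5p, then miR-181a-3p and miR-181d, which overlapped, then miR-181c-5p, then miR-181c-3p and miR-181a-2-3p, which overlapped, and miR-181b-3p last. In the plus libraries miR-181a-3p stood apart from miR-181d, and miR-181b-3p stood above miR-181c-3p and miR-181a-2-3p. The strands are 21 to 23 bases long, and counts were not corrected for length. Strands with different letters may be ligated and kept unequally, so this is an order of counts and not of output.

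The difference between the shRNA lines is a contrast that the choice of the family did not use, and it was tested with condition as a term. Of the 709 miRNAs, limma called 4 (0.564%), and none of the 8 miR-181 strands was among them. Unadjusted p-values were under 0.05 for 57 of the 709 and for 3 of the 8. The 3 were miR-181a-5p, miR-181b-5p and miR-181b-3p, which come from paired hairpins and are not separate observations. Among the 8 strands the number was 2 under quantile normalization, 1 with no mean-variance trend and 0 with no condition term. miR-181a-5p was lower in the sh2 line than in the sh1 line in both conditions, with plus and minus ratios of 0.881 and 0.816 and a log2 difference of −0.24 ± 0.076 (standard error, limma adjusted p = 0.164). miR-181b-5p was at −0.20 (limma adjusted p = 0.342) and miR-181b-3p at −0.66 ± 0.22 (standard error, limma adjusted p = 0.173), both lower in the sh2 line in both conditions. For miR-181b-3p the sh2 to sh1 ratio was 0.731 in plus (counting interval 0.583 to 0.915) and 0.543 in minus (0.357 to 0.830). The other 5 strands had log2 differences from −0.27 to 0.20 with limma adjusted p-values from 0.718 to 0.985. The line that plus replicate 1 belongs to is by elimination, and every value of this contrast rests on it except those within the minus libraries.

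The miRNAs outside the family with a pattern most like that of miR-181a-5p were sought by Euclidean distance over the 4 libraries, in log2(value + 1) centred on the minus mean, at a mean of at least 100. The nearest was miR-34c-5p, a p53-induced miRNA, at a distance of 0.83, with 666 and 651 normalised counts in plus, against 211 and 179 in minus. For scale, miR-181b-5p lay at 0.43, miR-181a-3p at 0.65, miR-181b-3p at 0.93 and miR-181a-2-3p at 3.04. Then came miR-4284 at 1.15, whose plus libraries differed, at 371 and 172, against 78.7 and 77.2 in minus. miR-4461 followed at 1.81, miR-22-5p at 1.91 and miR-146a-5p, a miRNA induced by NF-kB, at 1.92, with log2 changes from 0.99 to 1.07. The first 2 of these 5 stayed among the 5 nearest with any library left out. With 4 libraries in 2 conditions, the distance mostly reflects the size of the difference.

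Other miRNAs on the same chromosomes were listed by name and read against the background of 13.4% up and 15.1% down. These lists, and those of the next paragraphs, were chosen with earlier results of these data known. Their counts of calls and p-values are therefore given as a description. The background covers low miRNAs as well, and at a minimum mean of 100 the fit called 65 up and 76 down of 386. With no level filter, or with no mean-variance trend, 5 miRNAs were called up and 0 down. Of these 5, 3 were miR-181 strands, so most calls in the lists were lost in each setting. On 1q, 3 of 9 tested strands were up, 1 was down and 5 were not called (median log2 change 0.14). miR-135b-5p, whose hairpin lies 6.59 Mb from MIR181A1 and which is raised in colorectal tumours, had 9639 and 8438 normalised counts in plus, against 8102 and 6568 in minus (log2 change 0.31, limma adjusted p = 0.0114). Its call was lost with equal totals and under quantile normalization, and miR-135b-3p was not called (0.14, limma adjusted p = 0.389). miR-194-5p, an intestinal miRNA with a second copy on another chromosome, rose by 0.72 on the log2 scale (limma adjusted p = 4.74e-08). On 9q, 1 of 3 was up. miR-199b-5p, whose hairpin lies 3.55 Mb from MIR181A2, was at 0.34 (limma adjusted p = 0.0199), lost with equal totals and under quantile normalization, while miR-126-3p at −0.13 and miR-126-5p at −0.22 were not called (limma adjusted p = 0.319 and 0.0737). miR-126-5p was a called fall with equal totals, at −0.28, and with the line as a block.

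On 19p13, 3 of 6 tested strands were up. All 6 belong to the cluster of miR-23a, miR-27a and miR-24-2, which lies 38.0 kb from MIR181C. miR-23a-3p had 117545 and 98129 normalised counts in plus, against 78312 and 73974 in minus (log2 change 0.50, limma adjusted p = 1.20e-05), miR-27a-3p was at 0.51 (limma adjusted p = 1.31e-05) and miR-24-3p, which has a second copy elsewhere, at 0.27 (limma adjusted p = 0.0195). Each of these calls was lost under quantile normalization, and that of miR-24-3p also with equal totals. None of the neighbours named here reached the changes of the chromosome 1 strands of miR-181.

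Of miRNAs known to be raised by TGF-beta or STAT3 signalling, as miR-181a and miR-181b are, 5 of 9 tested strands were up and 1 was down (median log2 change 0.29), beside 13.4% up and 15.1% down over all tested miRNAs. Of the 5, miR-24-3p, miR-23a-3p and miR-27a-3p belong to 1 cluster and are the strands already counted as up on 19p13. They are not separate observations. miR-24-3p and miR-143-3p lost their calls with equal totals and under quantile normalization, and miR-23a-3p and miR-27a-3p under quantile normalization. The other strand up, miR-182-5p, was at 0.63 (limma adjusted p = 4.48e-08), and other scalings are not given for it. The most abundant, miR-21-5p, was at 0.13 and was not called (limma adjusted p = 0.289), and miR-24-3p and miR-23a-3p are given above. Of miRNAs with roles in lymphocytes, where miR-181 is best known, 1 of 5 tested was up and 2 were down (median −0.36), beside the same 13.4% and 15.1%. The 1 up was miR-146a-5p, at 0.99 (limma adjusted p = 3.05e-06). miR-20a-5p was at −0.37 and miR-17-5p at −0.36 (limma adjusted p = 0.000739 and 0.000687), and miR-92a-3p at −0.03 was not called, though it was a called fall of −0.14 under quantile normalization.

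Markers of blood cells, which are rich in miR-181, were checked beside the family. The 8 listed strands summed to 1030 and 1210 normalised counts in plus, against 1003 and 1222 in minus, and none of the 4 tested was called (3 had a p over 0.8 after adjustment and miR-142-3p, at −0.51, had a limma adjusted p of 0.205). miR-486-5p made up most of that sum. miR-142-3p, which marks all white blood cells, stood at 30.9 and 36.8 in plus, against 60.5 and 38.7 in minus, and miR-223-3p, miR-150-5p and both strands of miR-144 stood between 0 and 14.2 in every library. Against 13.4% up and 15.1% down over all tested miRNAs, 2 of 4 tested stroma markers were up and 1 was down. Of these, miR-143-3p (0.29) lost its call with equal totals and under quantile normalization, and miR-145-5p (−0.29) under median-ratio scaling and quantile normalization. The other marker up, miR-199a-3p, was at 0.46 (limma adjusted p = 0.00484), and other scalings are not given for it. Of 3 neuron markers 1 was up, namely miR-9-5p at 0.44, and of 10 epithelial and colon markers 5 were up.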

How the data were processed

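Small-RNA libraries of 4 HCT116 samples were compared, 2 plus against 2 minus. The deposited signal per mature miRNA is taken as a read count that the authors rescaled so that libraries have similar totals. No source states this. It was inferred because, among values under 60, between 86.03% and 100% in each library fell no more than 0.1 reads from a whole read. Per the labels, a miRNeasy kit gave the RNA, a modified TruSeq small-RNA kit with 3 random bases on the 5′ adaptor gave the libraries, and the titles name cutadapt. TopHat2 2.0.8b, edgeR, hg19 and GRCh37 are in the submitters' processing notes. Which counter and which miRNA annotation were used is not given. Columns write sh4 where titles write sh2 and were matched by library number and index. All columns were mapped.

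Because whole reads were not recovered in every library, limma 3.58.1 (R 4.3.3) was fitted to log2(value + 1), trend included, two-sided, Benjamini-Hochberg adjusted over all 709 miRNAs with a mean of at least 10. The fit of plus against minus had 2 residual and 43 prior degrees of freedom. The line contrast had 1 residual and infinite prior degrees of freedom. Its standard errors therefore follow the trend over all miRNAs and use no spread of the strand itself. Without the trend, the standard error of miR-181a-5p in the line contrast was 0.140, against 0.076 with it. The fit was tested on simulated data. These were drawn with no difference between the shRNA lines, so they do not cover that spread. Alternatives were other scalings, pseudocounts and filters, no trend, the line as a block and each library left out. Same-numbered libraries come from 1 shRNA line, from the labels for replicate 2 and by elimination for replicate 1, and their deviations correlated at 0.0555 over 709 miRNAs. Exact permutation of 2 against 2 libraries cannot give a small p and was not used. Clopper-Pearson intervals (95%) cover counting error only and hold no spread between libraries. They treat reads as independent molecules, which reads are not, so they may be too narrow. Depth was 9566468 to 10296508 estimated reads per library.

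Named were all 8 strands, miRNAs with a member's seed, the 5 nearest to miR-181a-5p, and the 3 most abundant of each list. Outside this rule, and picked with their values in view, are miR-221-3p, miR-3614, miR-182-5p, miR-199a-3p, miR-223-3p, miR-150-5p and the miR-144 strands. The family and the lists were chosen with earlier results of these data known.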

Additional observations from a re-analysis of the deposited data

Results flagged for a closer look

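For 3 of the named miRNAs with a mean of at least 10 the plus libraries moved in opposite directions in the 2 shRNA lines. With 1 library per line and condition the difference was not tested, and 26.8% of all tested miRNAs have opposite signs. miR-181a-2-3p, the partner strand specific to chromosome 9, had a log2 change of −0.12 in the sh2 line and 0.55 in the sh1 line, a difference of −0.67. miR-143-3p, a stroma miRNA, was at 0.60 in the sh2 line and −0.02 in the sh1 line, a difference of 0.62. miR-486-5p, a blood miRNA, was at −0.02 in the sh2 line and 0.11 in the sh1 line, a difference of −0.14.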

How the results depend on the processing

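The plus against minus values of the miR-181 strands chose the family, so their ranges are a description. Leaving out each library in turn gave log2 changes of 2.19 to 2.48 for miR-181a-5p, 1.93 to 2.15 for miR-181b-5p, 1.81 to 1.97 for miR-181a-3p, 1.33 to 2.19 for miR-181b-3p and 0.0011 to 0.43 for miR-181a-2-3p. Over all miRNAs the 202 calls became 101 under quantile normalization, 5 with no level filter and 5 with no mean-variance trend. They were 7 and 8 when plus replicate 1 or 2 was dropped, and 95 and 113 when minus replicate 1 or 2 was dropped. The causes were not tested. With the replicate block they were 216, and the block changed no call among the strands.

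The line contrast had 8 calls under median-ratio scaling and 0 with equal totals, quantile normalization, no level filter, no trend or no condition term (limma, with 70, 46, 50, 45 and 3 unadjusted p-values under 0.05). No strand was called in any alternative run on it, and the lowest limma adjusted p of a strand was 0.0957, for miR-181a-5p, whose adjusted p ranged from there to 0.997.

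With 1 library left out, the difference of the log2 ratio of miR-181a-3p to miR-181a-2-3p ranged from 1.38 to 1.97. That of main to partner strand ranged from 0.38 to 0.52 for miR-181a (0.46 at a pseudocount of 5), −0.045 to 0.60 for miR-181b, with the reversal at −0.045 without minus replicate 1, and 0.24 to 0.87 for miR-181c. The family's share in plus over that in minus was 4.54 and ranged from 4.10 to 4.98. Of the 5 miRNAs nearest to miR-181a-5p, 3 to 5 stayed with 1 library left out, 2 at a minimum mean of 10 and 2 with Pearson correlation. Low strands are limited by depth, at 38 to 139 reads for miR-181b-3p in the sh2 line.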
